A study of Mus musculus with 16 samples.

Results

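The collagen genes of the mouse genome were followed through a test of cDNA amplification from a single-cell amount of RNA. All probe sets of the array whose only gene symbol in the platform annotation has the form of a collagen chain (Col, a type number, a and a chain number) were taken, with no filter on level. This gave 82 probe sets of 42 genes, out of 45037 noncontrol probe sets, which carry 18194 single gene symbols. The RNA was a preparation of total RNA from cultured embryonic stem cells of the mouse line E14tg2a. In the amplified group (8 arrays), it was diluted to 10 pg and turned into double-stranded cDNA by the V1V3 method, a PCR amplification meant for single cells, before labelling. In the nonamplified group (8 arrays), 5 µg of the undiluted RNA was labelled by the same one-cycle assay with no amplification step. Both groups therefore hold RNA of the same cells, with no treatment or genotype between them. The replicates are technical, so a p-value here measures the spread between arrays and not between cultures. In RNA of a whole culture, fewer cells expressing a gene and less RNA per cell cannot be told apart.

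Collagens are secreted proteins of 3 chains wound into a triple helix, built on a short repeat that starts with glycine. Fibrillar collagens (types I, II, III, V, XI, XXIV and XXVII) form the banded fibres of skin, bone, tendon and cartilage. Type IV forms the sheet of basement membranes, type VI beaded filaments, and types VIII and X short-chain networks. Fibril-associated collagens (types IX, XII, XIV, XVI, XIX, XX and XXII) sit on the surface of fibrils. Transmembrane collagens (types XIII, XVII, XXIII and XXV) are anchored in the cell membrane, and multiplexins (types XV and XVIII) carry sugar chains in basement membranes. Embryonic stem cells resemble the inner cell mass, a tissue before the stage at which connective tissue and cartilage form.

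The labelled cell type was checked against its markers. Of 10 stem cell marker genes, all on the array, the transcription factors Pou5f1 (Oct4), Sox2 and Nanog had nonamplified intensities of 4159 ± 213, 4050 ± 138 and 1776 ± 61.0 (SD, n = 8 each). Median array intensities lay between 49.7 and 53.8 without amplification and between 33.9 and 36.7 after it. Values of 1, the lowest in the table, made up 5.18% of 656 nonamplified and 7.77% of 656 amplified collagen values, against 2.55% and 7.53% over all probe sets. An intensity also depends on how well a probe set binds its target, so intensities of different probe sets are not an order of transcript amounts. Precision is limited by the number of arrays, 8 in each group.

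Col18a1 was the collagen gene with a high signal in the undiluted stem cell RNA. It encodes the chain of type XVIII collagen, a basement membrane proteoglycan whose C-terminal fragment is endostatin. The gene is known to be transcribed from more than 1 start. Its windows upstream of both RefSeq starts are shown because Col18a1 is the member that the nonamplified arrays detect strongly, and those of Col9a2 and Col3a1 because their probe sets had low signal there. Each holds the 250 bases before a start, from RefSeq on build GRCm38.p6. Capitals mark each GC box, the hexamer GGGCGG or its reverse complement CCGCCC, searched on both strands. The upstream Col18a1 start lies after chr10:77166531-77166780 (minus strand) and the downstream one after chr10:77113706-77113955 (minus strand). The Col9a2 window is chr4:121039316-121039565 and the Col3a1 window is chr1:45311288-45311537 (both plus strand).
Col18a1 upstream start: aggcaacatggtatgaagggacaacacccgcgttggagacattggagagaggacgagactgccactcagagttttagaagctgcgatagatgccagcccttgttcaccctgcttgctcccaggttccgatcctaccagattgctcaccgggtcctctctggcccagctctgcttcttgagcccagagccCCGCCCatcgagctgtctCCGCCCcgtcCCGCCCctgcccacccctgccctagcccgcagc
Col18a1 downstream start: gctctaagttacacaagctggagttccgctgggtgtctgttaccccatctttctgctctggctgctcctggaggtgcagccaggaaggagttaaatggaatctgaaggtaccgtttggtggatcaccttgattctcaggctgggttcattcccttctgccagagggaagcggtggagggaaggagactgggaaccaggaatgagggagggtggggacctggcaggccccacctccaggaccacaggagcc
Col9a2: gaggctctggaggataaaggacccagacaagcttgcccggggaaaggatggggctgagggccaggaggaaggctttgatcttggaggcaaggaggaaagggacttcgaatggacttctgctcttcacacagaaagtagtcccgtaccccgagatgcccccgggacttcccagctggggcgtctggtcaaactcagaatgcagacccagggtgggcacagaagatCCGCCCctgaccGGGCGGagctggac
Col3a1: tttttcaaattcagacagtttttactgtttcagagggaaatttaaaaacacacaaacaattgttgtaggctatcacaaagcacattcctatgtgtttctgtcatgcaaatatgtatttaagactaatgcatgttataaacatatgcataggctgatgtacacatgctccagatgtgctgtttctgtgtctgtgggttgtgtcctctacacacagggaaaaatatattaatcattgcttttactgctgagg

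The upstream Col18a1 window held 3 GC boxes and 12 CpG dinucleotides, and the downstream one 0 and 3. The Col9a2 window held 2 GC boxes and 9 CpG, and the Col3a1 window 0 of both, with 1 TATAAA on either strand. Windows were found for 33 of the 42 genes, some with more than 1 start, which gave 36 windows. A GC box was present in 21 of these 36 (58.3%) and in 32.7% of 32851 windows of all genes. Median CpG numbers were 9.5 and 6, and TATAAA was present in 13.9% and 12.4%. These matches describe the letters of the windows only.

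Without amplification, the Col18a1 probe set 1426955_at ranged from 1008 to 1126 with a median of 1062, and 1418237_s_at from 1222 to 1389 with a median of 1289. Their means stood at the 96.2 and 97.0 percentiles of all noncontrol probe sets. No other collagen probe set reached the 75th percentile. That of Col11a2, a chain of cartilage fibrils, had a mean of 138 ± 27.2 (74.8 percentile), that of Col16a1 121 ± 16.7, and 1 of the 4 of Col12a1 109 ± 17.2 (SD, n = 8 each). These and Col18a1 made up the 5 of 82 probe sets with a nonamplified mean over 100. Of the 82, 57 had nonamplified means at or below 51.2, the median over all probe sets. The median collagen probe set had a nonamplified mean of 33.2 and an amplified mean of 34.2, against 51.2 and 43.4 over all noncontrol probe sets.

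After amplification, Col18a1 signal was higher at both probe sets. At 1426955_at the 8 amplified arrays lay between 2299 and 3584 (median 2912), all above every nonamplified array. The log2 fold change was 1.43 (SE 0.093, adjusted p = 8.93e-10 by limma). Log2 fold changes here are amplified minus nonamplified means of log2(intensity + 16), which understate the change of dim probe sets. At 1418237_s_at the amplified values ran from 1241 through a median of 3175 to 5909, and the lowest ones overlapped the nonamplified values. Arrays 4 and 6 of the amplified group, at 1241 and 1292, stood within the nonamplified range, while arrays 1 and 8 reached 5284 and 5909. The log2 fold change was 1.10 (SE 0.30, limma adjusted p = 0.00459). It did not pass under quantile normalization (0.30, limma adjusted p = 0.345) or with arrays scaled on the hybridization controls (0.68, limma adjusted p = 0.0597). The SD over arrays at this probe set was 0.060 without and 0.88 with amplification on the log2 scale, and at 1426955_at it was 0.061 and 0.21.

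**Figure D1:**
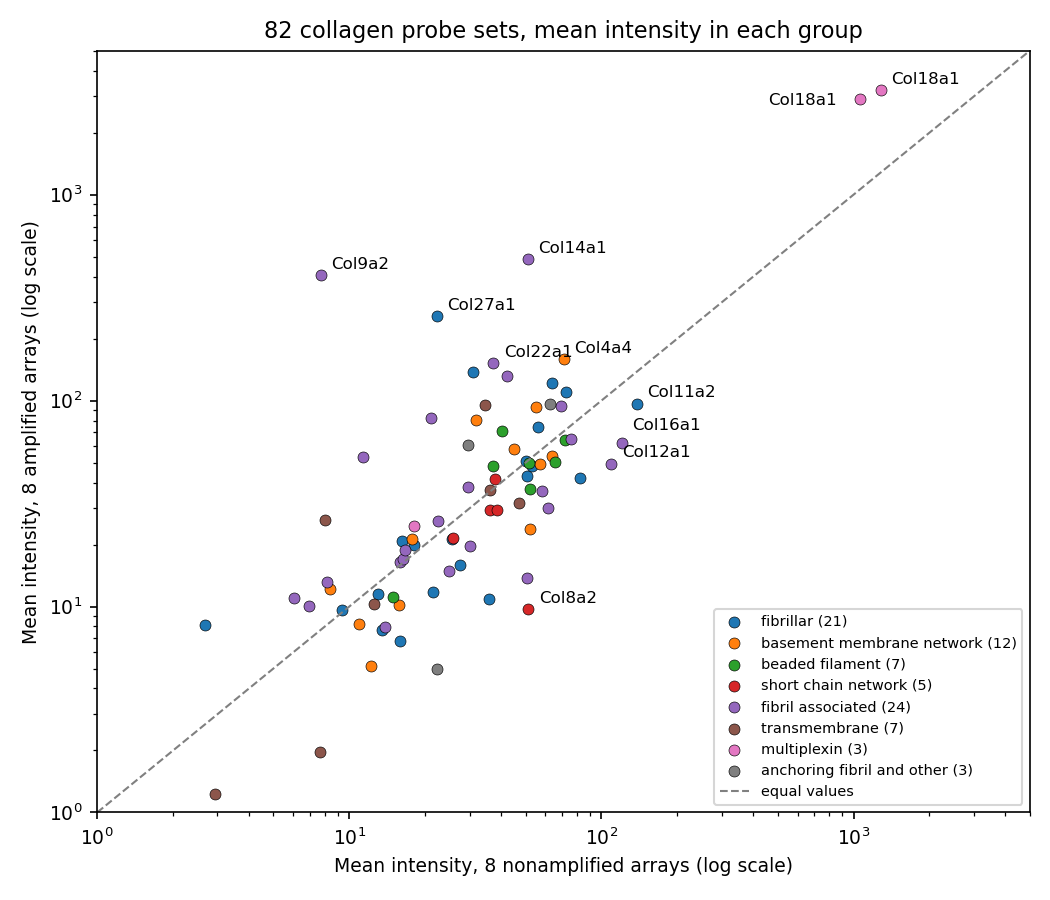
Mean intensity of each of the 82 collagen probe sets on 8 nonamplified arrays (horizontal axis) against 8 amplified arrays (vertical axis), both on log scales without units, with 1 point per probe set, coloured by collagen class, and a dashed line at equal values. Both Col18a1 points stand apart at the upper right, and Col9a2, Col14a1 and 1 probe set of Col27a1 lie far above the line from nonamplified means of 7.71, 51.0 and 22.3.

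The test was run over the 27022 probe sets whose mean log2 value over the 16 arrays was above the 40th percentile, an intensity of about 33.7. Of the 82 collagen probe sets, 40 passed this filter. Amplified signal was higher at 15, lower at 7 and not called at 18 (limma, 2-sided, adjusted p under 0.05). Over all tested probe sets 24.7% were higher and 32.8% lower, against 37.5% and 17.5% of these 40. However, 6 of the 40 passed the filter only through their amplified values and 3 only through their nonamplified values. Over all 82 members without a filter, 17 were higher and 17 lower (20.7% each), where 19.0% of all probe sets were higher and 31.1% lower. The share of higher members was near the background in that fit. All amplified values lay above all nonamplified ones for 10 of 82 probe sets (12.2%; 10.1% of all probe sets) and below them for 5 (6.10%; 15.6% of all). The median log2 fold change was −0.090 over the 82 and −0.17 over all noncontrol probe sets. Of the 15 higher calls, 8 held under each of 4 other scalings of the arrays, and of the 7 lower calls 4 did. The median over all tested probe sets was −0.17 as deposited and −0.59 to 0.24 under these scalings. With arrays scaled on the hybridization controls 8 collagen probe sets were higher and 15 lower, and with arrays centred on their median 23 were higher and 4 lower.

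Among fibrillar collagens tested with the filter, Col27a1 and Col5a1 rose and Col1a2 and Col11a2 fell. In this class 10 of 21 probe sets were tested, 4 being higher and 2 lower. Col27a1, a fibrillar chain of developing cartilage, had 1 probe set (1429549_at) with nonamplified values from 8.28 to 33.6 (median 22.5) and amplified values from 200 to 340 (median 253). The groups did not overlap, and the log2 fold change was 2.85 (SE 0.15, limma adjusted p = 4.34e-11). Its nonamplified mean alone was under the filter. The other probe set of Col27a1 (1453191_at) went from a mean of 63.7 to 121, also without overlap (log2 fold change 0.78, limma adjusted p = 7.87e-06). That call was lost with scaling on the hybridization controls (0.36, limma adjusted p = 0.108).

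The 3 probe sets of Col5a1, the main chain of type V collagen that starts fibril assembly, differed from each other. At 1416741_at nonamplified values of 20.5 to 35.9 (median 32.7) stood below amplified values of 101 to 254 (median 111), giving a log2 fold change of 1.66 (SE 0.17, adjusted p = 2.12e-07 by limma). This probe set passed the filter only through the amplified group. At 1434479_at the means were 72.2 and 111 with overlapping values (log2 fold change 0.51, limma adjusted p = 0.00234), a difference lost with scaling on the hybridization controls (0.090) or with weights per group (limma adjusted p = 0.0692). At 1416740_at, amplified array 3 measured 480.5 and the other 7 between 8.64 and 22.9, below every nonamplified value (42.6 to 66.8). The log2 fold change there was −0.66 and did not pass (SE 0.48, limma adjusted p = 0.256). Without that array it was −1.16 (limma adjusted p = 6.56e-07).

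Among type I and type III collagens, the main fibres of connective tissue, 1 probe set of Col1a2 fell and those of Col1a1 and Col3a1 were not called with the filter. The Col1a2 one stood at the 63.3 percentile of nonamplified means and the brighter one of Col1a1 at 51.0, and the other 5 were under the 25th percentile. Col1a1, the alpha 1 chain of type I, ranged from 30.5 to 79.4 (median 49.7) without and from 36.4 to 70.0 (median 48.1) with amplification at 1423669_at. These ranges overlapped almost fully, and the log2 fold change of −0.093 did not pass (limma adjusted p = 0.630). Its other probe set had means of 18.1 and 19.8. Col1a2, the alpha 2 chain, fell at 1450857_a_at from 72.4 to 98.9 (median 79.3) to 19.1 to 67.2 (median 38.9), with no overlap (log2 fold change −0.80, limma adjusted p = 0.000173). The other 2 probe sets of Col1a2, at means of 16.1 and 9.36 without amplification, were under the filter, and their log2 fold changes were 0.18 and 0.061. Col3a1, the chain of type III, had nonamplified means of 21.6 and 2.67 and amplified means of 11.8 and 8.10, all under the filter. Col2a1, the cartilage chain, had nonamplified values of 43.3 to 59.3 (median 50.6) and amplified values of 16.5 to 131 (median 42.0). The amplified values spread to both sides of the nonamplified ones (log2 fold change −0.12, limma adjusted p = 0.684). Col11a2 fell from 108 to 196 (median 133) to 71.2 to 122 (median 97.0), a log2 fold change of −0.46 (limma adjusted p = 0.00611). This call ended with each array centred on its median (−0.047), with 2 other scalings and with weights per group. Col5a2, Col11a1, Col24a1 and both probe sets of Col5a3 had means from 6.80 to 50.7 over both groups. None of them was called with the filter on the deposited values. Col5a3 1419703_at was called lower with scaling on the hybridization controls (−0.54, limma adjusted p = 0.0308). In the fit without a filter, Col11a1 was called lower at 1418599_at (−0.98, limma adjusted p = 0.000104) and 1449154_at (−0.55, limma adjusted p = 0.0344). Col3a1 was called lower there at 1427883_a_at (−0.44, limma adjusted p = 0.0340).

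In the basement membrane class, 3 of 6 tested probe sets rose and 0 fell, and all 12 overlapped between groups. Col4a1 and Col4a2 are neighbours transcribed head to head, and their chains form the basement membrane network of most tissues. Col4a1 rose at 1426348_at from 44.4 to 67.5 (median 55.1) to 61.9 to 134 (median 87.4), and the log2 fold change was 0.59 (SE 0.13, adjusted p = 0.000995 by limma). Its other probe set (1452035_at) went from 45.3 to 60.9 (median 49.8) to 1.97 to 63.1 (median 20.9). That one was under the filter, and in the fit without a filter it was called lower (log2 fold change −0.94, limma adjusted p = 0.00603). Col4a2 measured 47.5 to 80.2 (median 63.9) and 33.1 to 80.7 (median 50.8), a log2 fold change of −0.21 that did not pass (limma adjusted p = 0.256). With scaling on the hybridization controls it was called lower (−0.63, limma adjusted p = 0.0142). Col4a4, a chain of the kidney glomerular membrane, rose at 1425772_at from a mean of 70.8 to 159 (log2 fold change 0.95, limma adjusted p = 0.00100). Col4a5, its partner chain on the X chromosome, rose at 1425475_at from 31.7 to 80.8 (log2 fold change 0.98, limma adjusted p = 0.000295) and was named after its values were seen. It passed the filter only through the amplified group. The other Col4a5 probe set (1425476_at, means of 12.2 and 5.15) was under the filter and was called lower in the fit without one (−0.42, limma adjusted p = 0.0172). All 3 calls of the class were lost with scaling on the hybridization controls. Both probe sets of Col4a6 stood near the middle of the arrays, with log2 fold changes of 0.30 and −0.15 that did not pass. The latter was called higher under quantile normalization (0.25) and with arrays centred on their median (0.26), and lower with scaling on the hybridization controls (−0.57). The former was called higher under 3 other scalings (0.63 to 0.71). Both probe sets of Col4a3, the other kidney chain, had means of 8.21 to 21.4 and were under the filter.

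The beaded filament class had 1 call. Of 7 probe sets 6 were tested, 1 was higher and 0 were lower, and all 7 overlapped. Col6a1, the alpha 1 chain of type VI collagen, ranged from 56.4 to 82.9 (median 72.6) without and from 54.7 to 82.7 (median 61.5) with amplification. The groups covered almost the same range (log2 fold change −0.12, limma adjusted p = 0.304), although the probe set was called higher under quantile normalization (0.26) and centring on the median (0.29), and lower with scaling on the hybridization controls (−0.54). Col6a3, the long alpha 3 chain, was the higher one, chosen after its values were seen, at means of 40.3 and 71.6 (log2 fold change 0.62, limma adjusted p = 0.00149). It was lost with weights per group and with scaling on the hybridization controls. Probe sets of Col6a2 and Col6a4 had log2 fold changes from −0.39 to 0.14, and that of Col6a5 was under the filter. With scaling on the hybridization controls both of Col6a2 (−0.81 and −0.51) and 1429072_at of Col6a4 (−0.74) were called lower. Col6a2 1452250_a_at was also called lower without amplified array 2 (−0.50) or 8 (−0.44) or nonamplified array 6 (−0.46), and Col6a4 1429072_at without amplified array 3 (−0.42) or nonamplified array 8 (−0.38).

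Fibril-associated collagens held the largest differences in both directions among the tested members. Of 24 probe sets 10 were tested, 4 were higher and 4 lower. Col9a2, a chain of type IX collagen of cartilage, had nonamplified values of 1 to 16.7 (median 6.89), with 2 arrays at the lowest value of the table. Its amplified values were 212 to 964 (median 314), the highest on arrays 3 and 2. The log2 fold change was 4.02 (SE 0.27, limma adjusted p = 1.42e-09), and the probe set passed the filter only through the amplified group. Its partner chains did not show such values. Of the 3 probe sets of Col9a3, amplified means were 7.96 to 19.6. Col9a1 fell at 1421381_a_at from 41.2 to 68.5 (median 64.3) to 9.003 to 40.8 (median 32.6; log2 fold change −0.79, limma adjusted p = 0.000257), without overlap. This probe set passed the filter only through the nonamplified group. At 1428571_at Col9a1 had means of 69.3 and 94.5 and did not pass (0.37, limma adjusted p = 0.0544). That difference passed under 3 other scalings (0.70 to 0.78) and with the replicate block (limma adjusted p = 0.0232).

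Col14a1, a chain found on fibrils of skin and tendon, rose with little spread between arrays. At 1428455_at nonamplified values of 37.9 to 75.8 (median 49.6) faced amplified values of 363 to 533 (median 498), and the log2 fold change was 2.91 (SE 0.11, adjusted p = 9.32e-13 by limma). Its SD over amplified arrays, 0.17, was smaller than that over nonamplified arrays, 0.23. A different probe set of Col14a1 (1453931_at) went the other way without overlap, from 39.2 to 81.5 (median 47.3) to 1 to 20.2 (median 15.2), but was under the filter. In the fit without a filter that probe set was called lower (log2 fold change −1.17, limma adjusted p = 6.63e-06). The remaining probe set of Col14a1 was at means of 16.3 and 17.03.

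Col22a1, a chain of tissue junctions, rose at 1453084_s_at from 20.7 to 51.6 (median 37.7) to 114 to 250 (median 136), without overlap (log2 fold change 1.64, limma adjusted p = 7.43e-08). Its probe set 1446851_at gave 75.7 and 65.3 (−0.18, limma adjusted p = 0.0687) and was called higher under quantile normalization (0.20) and median centring (0.23), and lower with scaling on the hybridization controls (−0.59). Col20a1 was the gene with calls in both directions in the fit with the filter. Without a filter Col4a1, Col4a5, Col12a1, Col14a1 and Col23a1 also had calls both ways. Its probe set 1425235_s_at rose from 23.8 to 56.5 (median 43.5) to 85.3 to 236 (median 126; log2 fold change 1.31, limma adjusted p = 7.93e-06), while 1425234_at fell from a mean of 58.0 to 36.4 (−0.54, limma adjusted p = 0.0117). The lower call ended under 3 other scalings and with weights per group.

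Col16a1 and 1 of the 4 probe sets of Col12a1 fell with no overlap. Col12a1, a chain of tendon and muscle matrix, went at 1427391_a_at from 91.7 to 145 (median 107) to 34.7 to 59.3 (median 48.1), and the log2 fold change was −0.94 (SE 0.10, adjusted p = 7.20e-07 by limma). Col16a1 went from 97.7 to 151 (median 119) to 49.8 to 77.2 (median 59.3), and the log2 fold change was −0.80 (SE 0.098, adjusted p = 2.20e-06 by limma). Neither call was lost under any alternative that tested these probe sets. Of the other 3 probe sets of Col12a1, all under the filter, 1434411_at stood at means of 11.3 and 53.4 and did not overlap. In the fit without a filter it was called higher (log2 fold change 1.36, limma adjusted p = 3.82e-06). The 3 probe sets of Col19a1 were under the filter, at means of 14.8 to 26.1 over both groups.

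The remaining classes had few calls. Col13a1, a membrane collagen of the neuromuscular junction, rose from 17.1 to 46.8 (median 35.2) to 61.2 to 144 (median 90.3), without overlap (log2 fold change 1.13, limma adjusted p = 1.34e-05), and passed the filter only through the amplified group. Col23a1 was called lower at 1 of 3 probe sets (1429209_at, means of 47.3 and 32.0, log2 fold change −0.39, limma adjusted p = 0.0391), chosen after its values were seen. That call was lost in 10 of the 16 fits that left out an array, under 3 other scalings and with weights per group. The probe set 1429209_at passed the filter only through the nonamplified group, and the other probe sets of Col23a1 were under the filter. In the fit without one, 1429210_at was called higher (means of 8.02 and 26.2, 0.84, limma adjusted p = 0.00221) and 1440911_at lower (−0.37, limma adjusted p = 0.0299). Probe sets of Col17a1 and Col25a1 were not called. Col7a1, the anchoring fibril chain of skin, had nonamplified values of 47.6 to 71.9 (median 63.5) and amplified values of 52.3 to 242 (median 79.5), the highest on array 2. It did not pass (log2 fold change 0.41, limma adjusted p = 0.0900), but passed under 3 other scalings (0.74 to 0.82). Col26a1, grouped with it here, had means of 29.5 and 61.0 at 1 probe set, which did not pass (0.46, limma adjusted p = 0.256) but did under quantile normalization (0.83, limma adjusted p = 0.0340) and median centring (0.87, limma adjusted p = 0.0370). Its other probe set, under the filter, was at 22.2 and 4.95. Col15a1, the other multiplexin, had means of 18.1 and 24.5 and was under the filter. The short-chain network held no call in the test on the deposited values. Col10a1 and the 3 probe sets of Col8a1 had means of 21.4 to 41.5 in both groups. Col8a1 1455627_at was called higher under quantile normalization (0.46, limma adjusted p = 0.0205) and median centring (0.47, limma adjusted p = 0.0191). Col8a2 of that class was at 34.4 to 64.7 (median 49.8) without amplification and at the lowest value of 1 as the amplified median, with array 2 at 54.0. It was under the filter and was called lower in the fit without one (log2 fold change −1.58, limma adjusted p = 6.10e-05).

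**Figure D2:**
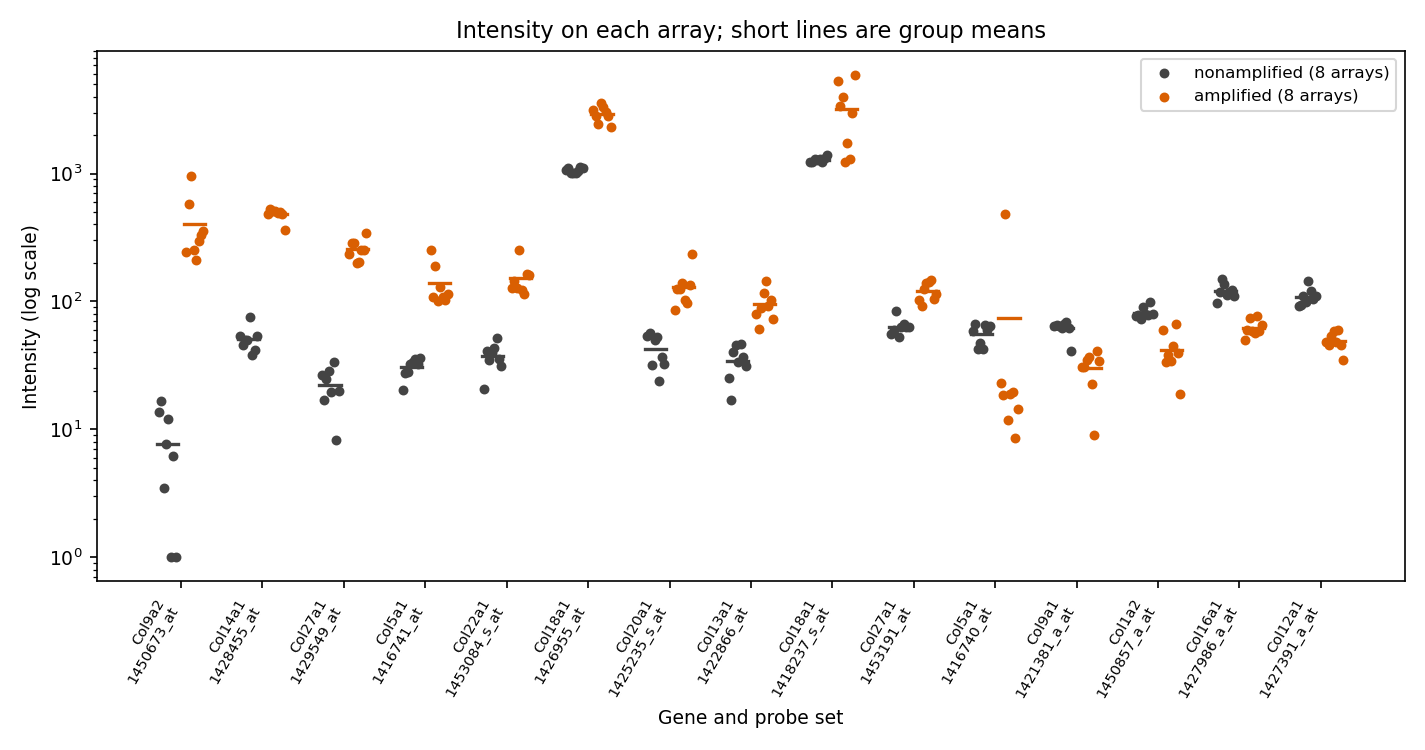
Intensity on each array (vertical axis, log scale, no unit) for the called collagen probe sets whose groups did not overlap, with the second probe set of Col18a1 and 1 of Col5a1 added, ordered by log2 fold change. Each point is 1 array and short lines are group means. The 8 amplified points of Col9a2, Col14a1 and Col27a1 (1429549_at) lie well above the nonamplified ones, and for Col5a1 1416740_at array 3 at 480.5 alone lifts the amplified mean to 74.4.

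**Figure D3:**
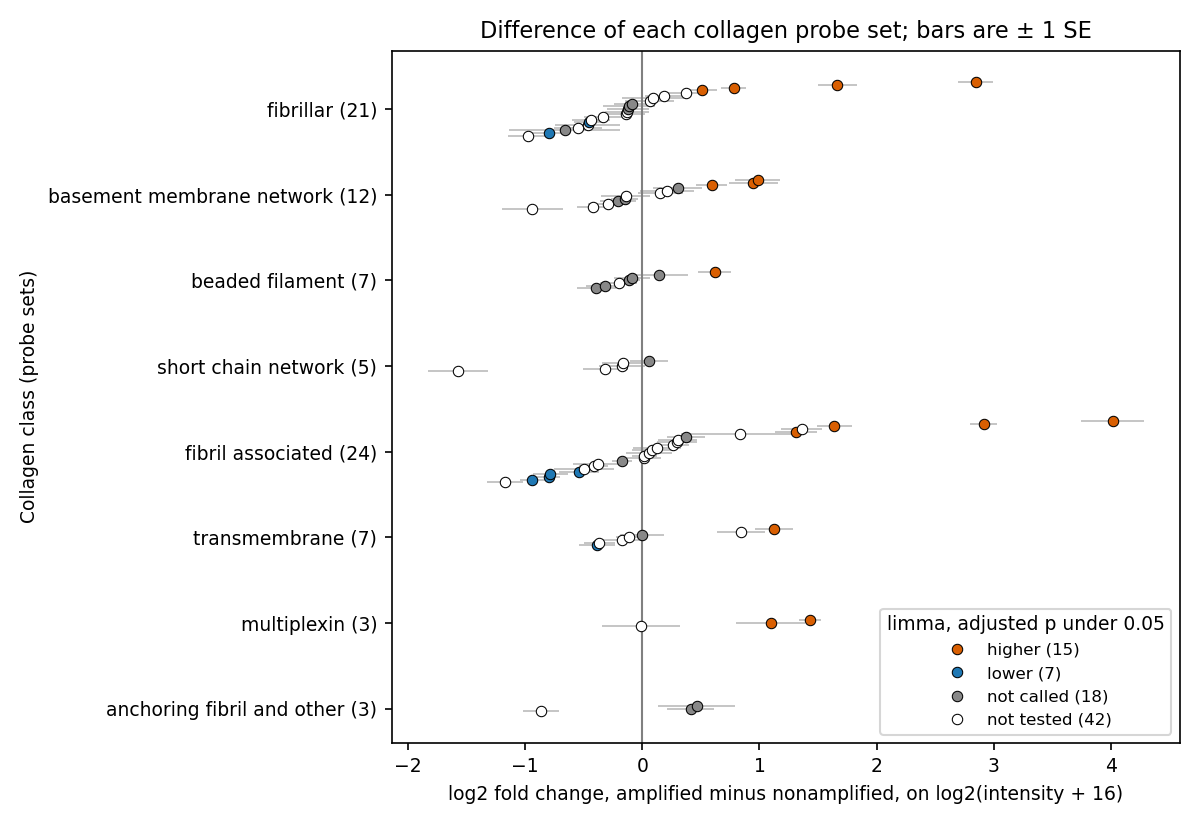
Log2 fold change (amplified minus nonamplified, on log2(intensity + 16), horizontal axis) of all 82 collagen probe sets by class (vertical axis), with bars of 1 SE from the fit without a filter and fill by the call of the filtered limma fit. Most points lie near 0, and the fibril-associated class runs from −1.17 to 4.02.

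Probe sets of a gene often disagreed. Of the 42 genes, 27 had more than 1 probe set, with at most 4, and the median range of log2 fold changes within such a gene was 0.81. The ranges were 4.08 for Col14a1, 2.33 for Col5a1, 2.30 for Col12a1 and 2.07 for Col27a1. By contrast both Col18a1 probe sets differed by 0.33. With the filter, at least 1 probe set was called higher for 12 genes and lower for 7, and 24 genes had no call. The same counts over all genes were not made. The only higher calls of Col4a5, Col9a2 and Col13a1 came from probe sets that passed the filter only through the amplified group. Among control transcripts with probe sets along their length, the log2 difference of Gapdh was 0.17 at the 3′ end and −1.46 at the 5′ end. That of Actb was −2.75 at the 3′ end, −4.54 in the middle and −2.76 at the 5′ end. Where the collagen probe sets lie on their transcripts was not used here, and its part in these differences was not tested.

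The order of the collagen probe sets was kept better within a group than between groups. The Spearman correlation across the 82 probe sets averaged 0.87 over pairs of nonamplified arrays, 0.81 over pairs of amplified arrays and 0.57 across groups. Over all noncontrol probe sets the averages were 0.96, 0.71 and 0.57. Without Col18a1 the collagen averages were 0.86, 0.79 and 0.54. These coefficients describe agreement across probe sets of the same arrays, which share binding properties and are not independent.

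Spread between arrays was larger with amplification for 56 of the 82 probe sets, a smaller share than the 37153 of all 45037 noncontrol probe sets. The median SD on the log2 scale was 0.27 without and 0.36 with amplification, against 0.18 and 0.42 over all noncontrol probe sets. The largest amplified SDs were those of Col20a1 at 1430855_at (1.496) and of Col5a1 at 1416740_at (1.41). At 1430855_at, Col20a1 ranged from 1 to 240 (median 53.0) on amplified arrays, and from 8.98 to 31.5 without amplification. Col26a1 (0.96), Col15a1 (0.96) and Col18a1 at 1418237_s_at (0.88) followed.

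**Figure D4:**
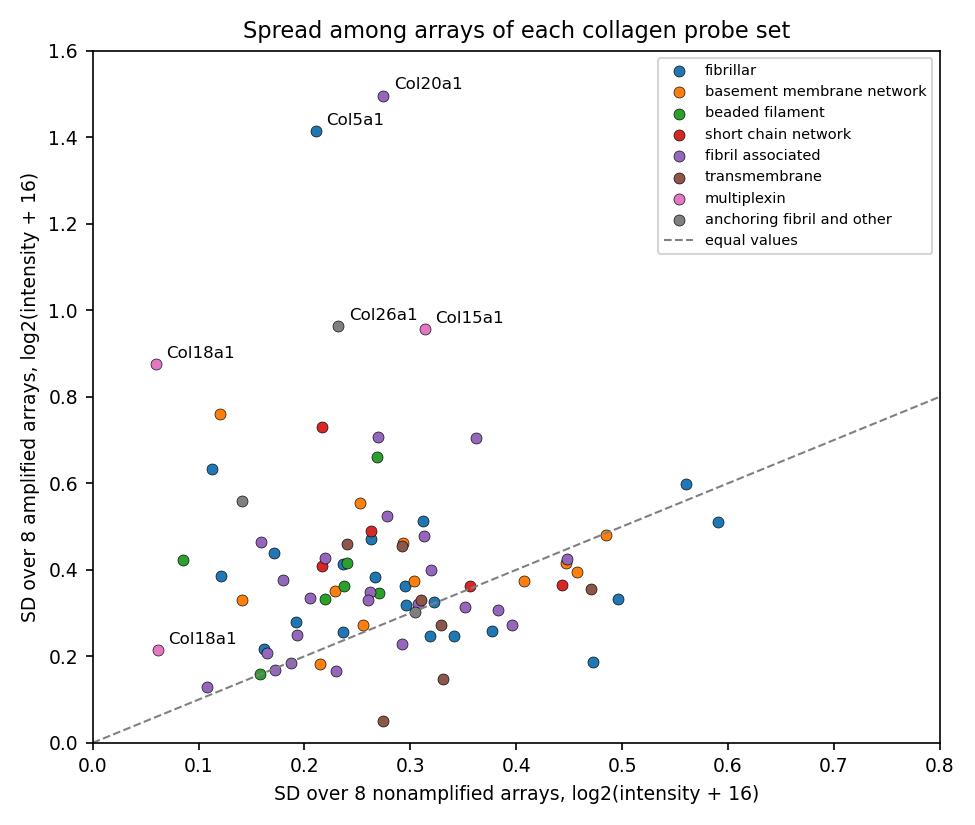
SD of log2(intensity + 16) over 8 nonamplified arrays (horizontal axis) and over 8 amplified arrays (vertical axis), with 1 point per collagen probe set, coloured by class, and a dashed line at equal values. The 56 points above the line include both Col18a1 probe sets, which have the smallest nonamplified SDs, at 0.060 and 0.061.

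A member was counted as dropped out where its nonamplified mean was in the upper 50% of all probe sets and its value on an amplified array was under the 25th percentile of that array. Of the 25 collagen probe sets in that upper part, 4 had dropouts, 12 of 200 values (6%), against 14.5% over all probe sets of that part. These were Col8a2 on 6 arrays, Col4a1 (1452035_at) on 3, Col5a1 (1416740_at) on 2 and Col9a1 (1421381_a_at) on 1. On nonamplified arrays there were 0 collagen dropouts. These members had nonamplified means of 51.3 to 61.7, close to the level that defines the upper part.

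Collagen chains need a set of enzymes and carriers, and these genes were measured on the same arrays. The lists held 74 genes, of which 68 had 132 probe sets, with 95 tested, 17 higher and 32 lower. These shares of 17.9% and 33.7% compare with 24.7% and 32.8% of all tested probe sets. Of the 95, 6 passed the filter only through amplified and 13 only through nonamplified values. Without a filter 19.7% were higher and 29.5% lower, near the 19.0% and 31.1% of all probe sets. Serpinh1 encodes Hsp47, the chaperone that binds the folded collagen helix. At 1450843_a_at it ranged from 36.6 to 54.7 (median 42.1) without and from 3037 to 4415 (median 3478) with amplification. The groups were far apart, and the log2 fold change was 5.92 (SE 0.097, adjusted p = 4.64e-17 by limma). The other tested probe set of Serpinh1 (1456733_x_at) fell from a mean of 51.1 to 35.6 (−0.41, limma adjusted p = 0.0196). That call was lost under quantile normalization (−0.0083), median centring (−0.0046), scaling on the brighter 50% (−0.088) and weights per group (limma adjusted p = 0.0842).

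Among 15 genes listed for prolyl and lysyl modification of collagen, which include partners of the enzymes, 1 of 16 tested probe sets was higher and 4 were lower. P4hb, protein disulfide isomerase and the shared subunit of prolyl 4-hydroxylase, had means of 1416 ± 41.4 and 1248 ± 390.5 (SD, n = 8 each) and did not pass (log2 fold change −0.24, limma adjusted p = 0.213). It was called lower under quantile normalization (−0.96), with scaling on the hybridization controls (−0.66) and without amplified array 4 (−0.34). P4ha1, the catalytic subunit of that enzyme, fell at 1452094_at from 144 to 76.3 (−1.01, limma adjusted p = 0.00574), which did not pass with median centring (−0.61, limma adjusted p = 0.0811). Its other probe set, under the filter, was at 79.2 and 6.11. Colgalt2, which like Colgalt1 adds galactose to collagen, fell without overlap to a mean of 20.5 from 397 (log2 fold change −3.52). Colgalt1 fell at 1433496_at to 29.3 from 185 (−2.22, no overlap). This probe set and that of Colgalt2 passed the filter only through the nonamplified group. At 1433495_at Colgalt1 had overlapping values with means of 511 and 390 and did not pass (−0.54, limma adjusted p = 0.0941). Ppib, cyclophilin B, rose at 1437649_x_at from 1108 to 2294 (0.92, limma adjusted p = 0.00181), while at 1450911_at the difference was 0.012. The higher call was lost under quantile normalization (0.15, limma adjusted p = 0.536) and with scaling on the hybridization controls (0.50, limma adjusted p = 0.0970). Both probe sets of Plod2, a lysyl hydroxylase, had log2 fold changes of −1.001 and −1.57 that did not pass, with amplified values from 1.33 to 562 at 1416687_at. Both passed with weights per group (limma adjusted p = 0.0156 and 0.0213) and with scaling on the hybridization controls. Without amplified array 5 both were called lower (−1.10 and −1.99), as was 1416686_at without array 1 (−1.28) and 1416687_at without array 4 (−1.93).

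Of the genes for folding and export, 4 of 24 tested probe sets were higher and 8 lower. Sec24d, a coat protein of vesicles that carry procollagen, rose from 247 to 733 (log2 fold change 1.25, limma adjusted p = 0.00327), and Creb3l1, a transcription factor of secretory cells, from 52.2 to 201 (1.61). The probe sets of Tmem38b, a cation channel of the endoplasmic reticulum, disagreed. At 1424700_at it fell from 273 to 74.2 (−2.17), at 1456544_at it rose from 50.3 to 97.5 (0.75, limma adjusted p = 0.000178), and at 1449677_s_at the difference of −0.43 did not pass. Cul3, the ubiquitin ligase scaffold that enlarges those vesicles, fell at 1422795_at from 181 to 33.4 (−2.65) and at 1450756_s_at from 196 to 72.0 (−1.82), while at 1422794_at the difference of −0.21 did not pass. That last one was called lower under quantile normalization (−0.69). Cul3 1434717_at (−0.12) and 1434718_at (means of 125 and 363, 0.75) did not pass either. Cul3 1422795_at passed the filter only through the nonamplified group.

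Propeptide processing and crosslinking had 4 higher and 4 lower of 10 tested probe sets. Pcolce, an enhancer of C-propeptide cleavage, rose at both of its probe sets, with means of 389.6 and 1361 at 1437165_a_at (log2 fold change 1.54) and of 209.8 and 589 at 1448433_a_at (1.21). Its relative Pcolce2 fell from 297 to 136 (−1.70, limma adjusted p = 0.00477), with amplified values from 5.79 to 607. Bmp1, the protease of that cleavage, fell at 1426238_at from 59.4 to 24.4 (−0.92), and Loxl4, a lysyl oxidase, at 1450134_at from 91.7 to 23.9 (−1.43). Both of these probe sets passed the filter only through the nonamplified group. The other Loxl4 probe set, 1421153_at, was under the filter and was called higher in the fit without one (0.42, limma adjusted p = 0.0350). Lox itself, which crosslinks collagen, had means of 137 and 101 at 1448228_at and did not pass (−0.44, limma adjusted p = 0.0546). That probe set was called lower with a pseudocount of 64 (−0.31), the replicate block (limma adjusted p = 0.0280), scaling on the hybridization controls (−0.86), and without amplified array 4 (−0.52) or 5 (−0.51). The other Lox probe sets, 1416121_at (means of 22.4 and 46.8) and 1437903_at (6.68 and 19.8), were under the filter. Both were called higher in the fit without one (0.72 and 0.72, limma adjusted p = 0.00219 and 0.00352).

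Receptors and degrading enzymes had 4 higher and 8 lower of 23 tested probe sets. Itgb1, the beta chain of the collagen-binding integrins, fell at 1452545_a_at from 351 to 392 (median 368) to 1 to 45.6 (median 6.10), a log2 fold change of −3.87 (limma adjusted p = 2.59e-10). At 1426918_at it fell from a mean of 351 to 26.3 (−3.40). At both of these, all amplified values lay below all nonamplified ones, and both passed the filter only through the nonamplified group. At 1427771_x_at Itgb1 fell from 219.7 to 117 (−0.84), and at 1426920_x_at, with means of 259 and 328, it did not pass (−0.12). Mmp14, a membrane collagenase, fell at 1448383_at from 142 to 28.04 (−1.90) and at 1440920_at from 61.2 to 38.75 (−0.52, limma adjusted p = 0.0264). Mmp14 1448383_at passed the filter only through the nonamplified group. Mmp9, a gelatinase, Ddr2, a collagen receptor kinase, and Itga2, the alpha chain of a collagen receptor, rose from nonamplified means of 30.3, 30.5 and 33.9 at 1 probe set each (log2 fold changes 1.45, 1.18 and 1.02). These 3 probe sets passed the filter only through the amplified group, and the other tested one of Mmp9 did not pass (−0.28, limma adjusted p = 0.0539). Ddr2 1455688_at was under the filter and was called lower in the fit without one (−0.61, limma adjusted p = 0.00157).

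Basement membrane partners of type IV and type XVIII collagen had 4 higher and 8 lower of 22 tested probe sets. Nid2, nidogen 2, fell from 1181 to 865 (−0.53, limma adjusted p = 0.0258), a call lost with median centring (−0.12, limma adjusted p = 0.619) and with scaling on the brighter 50% (−0.20). Nid1, a nidogen that links laminin to collagen IV, rose at 1416808_at from 356 to 897 (1.16), while 1448469_at did not pass (−0.32, limma adjusted p = 0.0537). Lamc1, the laminin gamma 1 chain, rose at 1423885_at from 650 to 1373 (1.01) and fell at 1423886_at from 200 to 22.1 (−2.62). Lamb1, the beta 1 chain, fell at 1451241_at from 166 to 4.56 (−3.22), while 1424114_s_at (0.70) and 1424113_at (−0.32) did not pass. Lamc1 1423886_at and Lamb1 1451241_at passed the filter only through the nonamplified group. At 1424114_s_at Lamb1 was called higher with median centring (1.11), scaling on the brighter 50% (1.03), weights per group (limma adjusted p = 0.0427) and without amplified array 3 (1.06). Lama3, a chain of skin laminin, rose at 1427512_a_at from 31.0 to 765 (4.01), a probe set that passed the filter only through the amplified group. Sparc, a collagen-binding protein, fell at its 3 probe sets, with log2 fold changes of −2.41, −2.33 and −0.56.

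**Figure D5:**
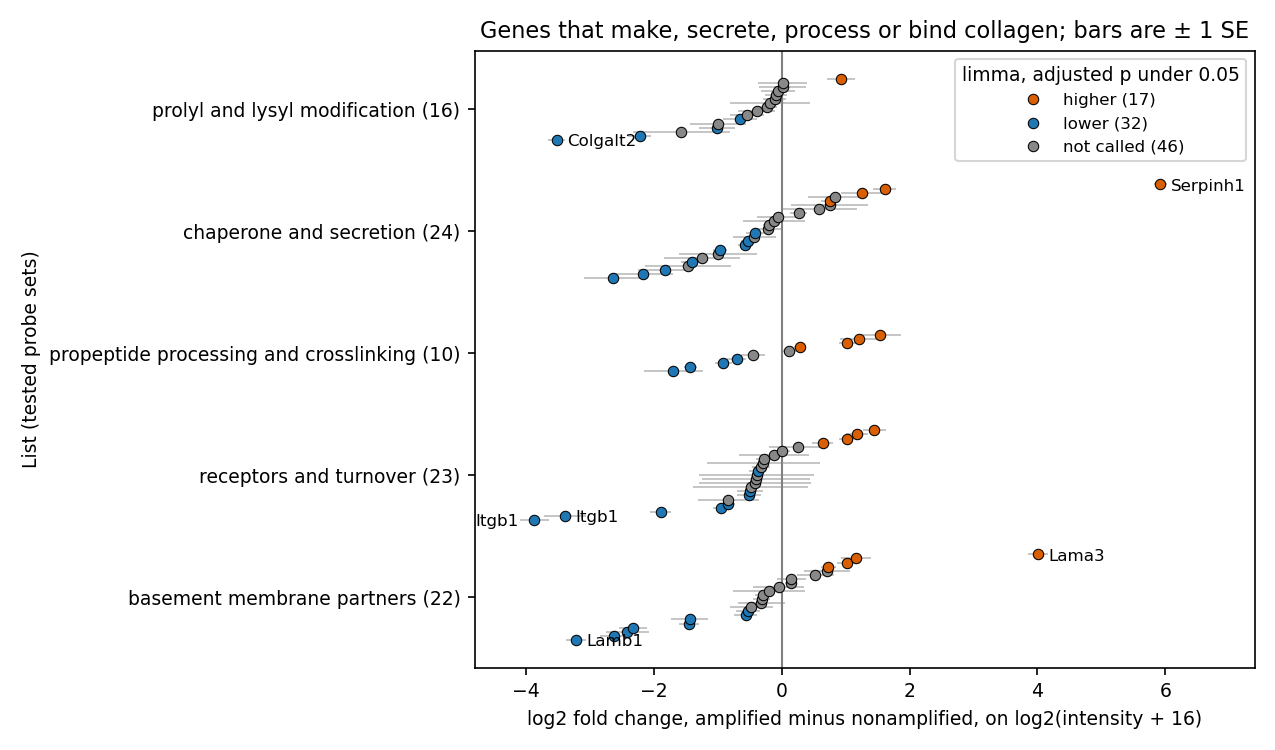
Log2 fold change (amplified minus nonamplified, on log2(intensity + 16), horizontal axis) of the 95 tested probe sets of genes that modify, export, process, bind or accompany collagen, by list (vertical axis), with bars of 1 SE and colour by the limma call. Serpinh1 at 5.92 and Lama3 at 4.01 lie farthest to the right, and Itgb1 at −3.87 and Colgalt2 at −3.52 farthest to the left.

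Markers of cells that make collagen were examined beside these values. Fibroblast markers (9 of 10 genes on the array, 13 probe sets) had 2 higher and 2 lower of 6 tested probe sets. Their summed intensity per array ranged from 819 to 874 without and from 4486 to 6509 with amplification, of which Fap contributed means of 282 and 4996. Without amplification, Fbln1 had means of 168 and 77.8 at 2 probe sets and Tagln 55.9. The other 9 probe sets of the list, among them those of Dcn, Lum and Thy1, had nonamplified means of 12.8 to 54.6. Cartilage markers (11 probe sets of 6 genes) had 2 higher and 1 lower of 4 tested, with sums of 288.5 to 420.1 and 443 to 535. Endoderm markers (28 probe sets of 12 genes) had 6 higher and 5 lower of 17 tested, with sums of 3811 to 4091 and 2783 to 5428. The laminin genes and Sparc are in this list and in that of basement membrane partners. Stem cell markers (18 probe sets) had 6 higher and 6 lower of 16 tested, with sums of 33690 to 35260 and 42750 to 47240. To these Utf1 contributed means of 1814 and 8761 at 1416899_at and of 221 and 2445 at 1443786_at. Sox2 rose from a mean of 4050 to 5047. Nanog fell from a mean of 1776 to 276 without overlap, and Pou5f1 from 4159 to 3155. Esrrb fell at 1422986_at (607 to 15.1) and 1436926_at (1411 to 625) and rose at 1441921_x_at (511 to 733). Esrrb 1422986_at passed the filter only through the nonamplified group. The part of these markers in the collagen differences was not tested.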

How the data were processed

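Affymetrix arrays were hybridized with biotinylated cRNA, made from PCR-amplified cDNA of 10 pg RNA or from 5 µg RNA, per the labels' protocols. The authors' deposited table holds linear intensity values, at least 1, for every probe set. How they were summarised and scaled was not given. Control probe sets (64) did not enter the test. Symbols came from the platform annotation, and all 82 collagen probe sets matched a RefSeq gene of assembly GRCm38.p6. After log2(intensity + 16), the 27022 probe sets above the 40th percentile of the mean were fitted in limma 3.58.1 (R 4.3.3, lmFit, eBayes), with Benjamini-Hochberg adjustment over all of them and a threshold of 0.05. Figures were drawn with matplotlib 3.10.9 (Python 3.11.15). The fit was tested on simulated data.

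Sample titles gave the groups. The rule named collagen probe sets with a nonamplified mean over the median, those called without overlap, and those of Col1a1, Col1a2, Col2a1, Col3a1, Col4a1, Col4a2, Col5a1, Col6a1 and Col18a1. From each other list it named the 3 largest called changes each way, the 2 highest nonamplified means and a few set genes, of which the text gives a part. Collagen probe sets outside the rule were chosen after their values were seen. The members and lists were chosen with earlier results of these data known. Other pseudocounts (1, 64), scalings, filters, weights and a robust trend were tried, as were fits without _x_at and _s_at probe sets, with the replicate block, and without each array. Scaling on the hybridization controls was added after the data were seen.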

Additional observations from a re-analysis of the deposited data

Results flagged for a closer look

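In 12 of 76 groups of 8 arrays, the highest or lowest value stood far from the rest, by a gap over the 95% critical value of Dixon's ratio (0.526). Chance alone gives this in about 1 of 20 groups of normally distributed values. The 76 groups were those of the collagen probe sets named by the rule, which were partly chosen by their values. Some groups held values at the lowest value of the table, 1. Normality was not tested, so the count is not set against that rate. On amplified arrays, the high values were Col5a1 1416740_at at 480.5 on array 3 (next 22.9), Col7a1 at 242 on array 2 (next 83.1), Col8a2 at 54.0 on array 2 (next 14.7), Col22a1 1453084_s_at at 250.5 on array 4 (next 165.5) and Col20a1 1425235_s_at at 236 on array 8 (next 139.5). Smaller ones were Col22a1 1446851_at at 81.7 on array 3 (next 67.4) and Col4a6 1421007_at at 70.5 on array 4 (next 49.8). The low values were Col14a1 1428455_at at 363 on array 8 (next 479), Col9a1 1421381_a_at at 9.003 on array 6 (next 22.6) and Col1a2 1423110_at at 4.25 on array 6 (next 18.4). On nonamplified arrays, Col3a1 1427884_at was at 14.4 on array 3 with the other 7 at the lowest value, 1, and Col9a1 1421381_a_at was at 41.2 on array 8 (next 61.6).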

How the results depend on the processing

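The count of 15 higher collagen probe sets became 23 with median centring of each array and 8 with scaling on the hybridization controls. The count of 7 lower ones became 4 under quantile normalization, median centring, scaling on the brighter 50% of probe sets or weights per group, 3 with a 60th percentile filter, 17 without a filter and 15 with the hybridization controls. Leaving out 1 array gave 15 to 16 higher and 6 to 10 lower. With the replicate block the counts were 16 and 7. Same-numbered arrays correlated at −0.0078 to 0.018 in their deviations, none of 8 pairs over 0.1. Of the 8 amplified arrays, 3 correlated best with the nonamplified array of their own number. These values cannot tell whether same-numbered arrays shared a step. For the machinery genes, 17 higher became 26 without a filter, and 32 lower became 21 with median centring and 49 with the hybridization controls. Leaving out 1 array gave 17 to 18 and 29 to 38. The median amplified SD of 0.36 was 0.64 with a pseudocount of 1, 0.18 with 64 and 0.28 with the 60th percentile filter, and 0.35 to 0.38 without 1 array. The 12 dropouts were 7 under the 10th and 25 under the 40th percentile.

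Log2 fold changes that changed sign under quantile normalization and median centring, with a call as deposited or under the alternative, were those of Col4a6 1421007_at (0.25 and 0.26), Col6a1 (0.26 and 0.29), Col22a1 1446851_at (0.20 and 0.23) and Col23a1 1429209_at (0.014 and 0.019). Other tested collagens, such as Col1a1, Col2a1 and Col4a2, changed sign under median centring with no call in either fit. Among stem cell markers, that of Dppa5a became −0.26 under quantile normalization and −0.11 with the hybridization controls, that of Sox2 −0.54 and −0.10, that of Tdgf1 −0.23 under quantile normalization, and that of Pou5f1 0.0010 with median centring. The cause of these changes was not tested. Signal near the lowest value of the table limits what can be read for the 42 collagen probe sets under the filter.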
